A study of Mus musculus with 11 samples.

Results

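*Ifrd1*, *Pign* and *Tatdn2* are 3 protein-coding genes out of the 53801 genes counted. They were picked because their RNA was higher in neural progenitor cells (NPCs) treated to delete *Smg6* than in control NPCs. That choice rested on the comparisons of *Smg6*-iKO with its controls in these same libraries, so the values of the 3 genes in those comparisons are given as a description, with no test. Each gene passed the filter on low counts in all comparisons.

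SMG6 is an endonuclease of nonsense-mediated mRNA decay (NMD), the pathway in which UPF1 marks transcripts whose translation stops too early and SMG6 cuts them close to the stop codon. Besides faulty transcripts, NMD degrades normal mRNAs that carry an upstream open reading frame (uORF) in the 5′ untranslated region (UTR), an exon junction well after the stop codon, or a long 3′ UTR. IFRD1 is a transcriptional coregulator that binds the SIN3 histone deacetylase complex, and a uORF of its human mRNA has been described to trigger NMD. PIGN is an enzyme of the endoplasmic reticulum that adds ethanolamine phosphate to the first mannose of the glycosylphosphatidylinositol (GPI) anchor, the lipid tail that holds many proteins on the surface of neural cells. TATDN2 belongs to the TatD family of metal-dependent nucleases.

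Total RNA was sequenced from 11 NPC cultures derived from brains of E13.5 embryos on a mixed C57BL/6 and 129SV background, after removal of ribosomal RNA. All cultures carried floxed *Smg6* on both alleles (*Smg6* Flox/Flox), so no group had a wild-type *Smg6* locus. Ctr held 3 untreated cultures with the tamoxifen-inducible recombinase (RosaCreER tg/+) from the embryos named SMH_128, SMH_132 and SMH_133. Ctr + 4-OHT held 4 cultures without the recombinase (RosaCreER +/+) from embryos SMH_125, SMH_126, SMH_129 and SMH_131, treated with 4-hydroxytamoxifen (4-OHT). *Smg6*-iKO held 4 cultures with both the recombinase and 4-OHT, from embryos SMH_127, SMH_128, SMH_132 and SMH_133. The treatment was 1 µM 4-OHT for 3 days, and RNA was taken 6 days after its start, as the labels give it; the study's text describes the length of exposure to 4-OHT and the time of RNA isolation differently, and the labels were followed. The 2 control groups differ in CreER and in 4-OHT at once, which cannot be told apart. Only *Smg6*-iKO had CreER and 4-OHT together, so the deletion and the active recombinase itself cannot be told apart either. RosaCreER is expressed from a locus active in most cell types, so every cell type of a culture could recombine.

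The 11 libraries held between 26418249 and 33756875 counts on genes, and levels are given as CPM (counts scaled to a common library total) after TMM normalization across all 11. *Smg6* itself stood at 69.4, 79.3 and 74.2 CPM in Ctr, at 66.5 to 72.2 CPM in Ctr + 4-OHT and at 62.2 to 71.8 CPM in *Smg6*-iKO, so *Smg6*-iKO overlapped both controls. Its log2 fold change against Ctr was -0.17 (adjusted p = 0.148 in edgeR), and -0.15 (adjusted p = 0.0430) with the embryo as a block. Counts summed over the gene do not show the loss of the floxed exons, and they give no check of the deletion. The 7 progenitor markers (*Nes*, *Sox2*, *Pax6*, *Vim*, *Fabp7*, *Hes5*, *Sox1*) summed to 4952 to 5141 CPM in Ctr, 4381 to 5376 CPM in Ctr + 4-OHT and 4264 to 4846 CPM in *Smg6*-iKO, so *Smg6*-iKO lay wholly below Ctr and overlapped Ctr + 4-OHT. Against Ctr, where edgeR called 4.98% of all genes lower, 5 of the 7 were called lower, with log2 fold changes of -1.28 for *Hes5* (adjusted p = 0.00186), -0.47 for *Sox2*, -0.45 for *Pax6*, -0.31 for *Sox1* and -0.29 for *Fabp7*, and against Ctr + 4-OHT 0 were called (*Hes5* -0.69, adjusted p = 0.0647). Of 4 astrocyte markers, 1 was called higher against Ctr (all genes, 4.27%), *Gfap* (1.33, adjusted p = 0.0288 in edgeR), which had 0.62 (adjusted p = 0.687) against Ctr + 4-OHT. *Aldh1l1* (-0.12), *Aqp4* (0.11) and *S100b* (0.56) were not called against Ctr. The astrocyte markers summed to 436 to 510 CPM in Ctr, 454 to 505 CPM in Ctr + 4-OHT and 427 to 515 CPM in *Smg6*-iKO, so all groups overlapped. The microglia markers summed to at most 1.26 CPM in any library, the blood markers to at most 0.366 CPM and the endothelium markers to at most 2.94 CPM. Neuron markers summed to 817 to 1010 CPM in Ctr, 731 to 1511 CPM in Ctr + 4-OHT and 1088 to 1391 CPM in *Smg6*-iKO. Of the 5 neuron markers 0 were called in *Smg6*-iKO against Ctr or against Ctr + 4-OHT. The part of the progenitor and *Gfap* calls and of the higher neuron sums against Ctr in the results was not tested. Mesenchyme markers (*Col1a1*, *Col3a1*, *Pdgfrb*, *Dcn*) summed to 1233 CPM in *Smg6*-iKO SMH_127 and to 231 to 709 CPM in the other 10 libraries.

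The 3 genes lie on different chromosomes of the mouse genome (GRCm38). *Ifrd1* (ENSMUSG00000001627) spans 40201567 to 40248504 on the minus strand of chromosome 12, with 13 exon blocks. *Pign* (ENSMUSG00000056536) spans 105518422 to 105663677 on the minus strand of chromosome 1, with 34 exon blocks, and starts 183 bases from *Relch*, which runs the other way. *Tatdn2* (ENSMUSG00000056952) spans 113697050 to 113711069 on the plus strand of chromosome 6, with 8 exon blocks. Their start regions are shown because the 3 genes were higher together. The bases just before the RefSeq transcription starts, on GRCm38.p6 and each read along the strand of the gene, were chr12:40223190-40223439 for *Ifrd1*, chr1:105663678-105663860 for *Pign* (the stretch shared with *Relch*) and chr6:113696800-113697049 for *Tatdn2*. Some annotated *Ifrd1* transcripts start further upstream. Capitals mark motif letters found on either strand.
Ifrd1: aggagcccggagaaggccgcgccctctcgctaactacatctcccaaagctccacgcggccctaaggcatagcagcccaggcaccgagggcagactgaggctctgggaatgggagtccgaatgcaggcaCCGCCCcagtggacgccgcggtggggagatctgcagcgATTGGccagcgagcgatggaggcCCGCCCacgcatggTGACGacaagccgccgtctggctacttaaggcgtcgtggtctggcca
Pign: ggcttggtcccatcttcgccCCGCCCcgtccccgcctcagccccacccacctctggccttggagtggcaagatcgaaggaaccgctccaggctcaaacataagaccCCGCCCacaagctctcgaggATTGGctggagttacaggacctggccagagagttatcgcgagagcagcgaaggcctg
Tatdn2: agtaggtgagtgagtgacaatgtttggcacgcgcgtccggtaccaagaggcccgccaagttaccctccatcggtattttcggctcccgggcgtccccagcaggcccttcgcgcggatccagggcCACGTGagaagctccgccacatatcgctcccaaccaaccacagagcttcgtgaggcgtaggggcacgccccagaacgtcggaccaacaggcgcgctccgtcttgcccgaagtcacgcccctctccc

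The motifs searched were the E-box CACGTG, the CRE core TGACG, the CCAAT box CCAAT, the GC box GGGCGG and the TATA box TATAAA, and no marked match overlapped another. No motif of the 5 was present in all 3 start regions. *Ifrd1* and *Pign* each held GC boxes and 1 CCAAT box, which 32.7% and 33.8% of the 32851 RefSeq start regions of 250 bases also held. *Ifrd1* further held 1 CRE core, found in 17.8% of start regions, and *Tatdn2* held 1 E-box, found in 6.02%. None of the 3 held the TATA letters, present in 12.4%.

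*Ifrd1* had the tightest control levels of the 3 genes. In Ctr it measured 47.9, 48.7 and 51.5 CPM in embryos SMH_128, SMH_132 and SMH_133. In Ctr + 4-OHT it measured 54.4, 50.2, 55.4 and 52.4 CPM in embryos SMH_125, SMH_126, SMH_129 and SMH_131. In *Smg6*-iKO it measured 86.1, 85.3, 77.3 and 82.0 CPM in embryos SMH_127, SMH_128, SMH_132 and SMH_133. Every *Smg6*-iKO library lay far above the 7 control libraries, with the lowest of them 1.39 times the highest control. The group means were 49.4 ± 1.87 CPM (SD, n = 3), 53.1 ± 2.29 CPM (SD, n = 4) and 82.7 ± 4.00 CPM (SD, n = 4). The fitted log2 fold change was 0.65 (SE 0.057) against Ctr + 4-OHT, or 56.8% more RNA, and 0.74 (SE 0.061) against Ctr, or 67.5% more. In bulk RNA, more cells that express a gene and more RNA per cell cannot be told apart.

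*Pign* was the gene whose size of change depended most on the control group. In Ctr it measured 62.8, 71.0 and 65.0 CPM in embryos SMH_128, SMH_132 and SMH_133. In Ctr + 4-OHT it measured 52.2, 54.6, 60.2 and 55.6 CPM in embryos SMH_125, SMH_126, SMH_129 and SMH_131. In *Smg6*-iKO it measured 80.0, 101, 87.3 and 91.98 CPM in embryos SMH_127, SMH_128, SMH_132 and SMH_133. The lowest *Smg6*-iKO library, from embryo SMH_127, was 1.13 times the highest control, and the *Smg6*-iKO group had the widest spread, with a coefficient of variation of 9.70%. The means were 66.3 ± 4.26 CPM in Ctr (SD, n = 3), 55.6 ± 3.35 CPM in Ctr + 4-OHT (SD, n = 4) and 90.0 ± 8.73 CPM in *Smg6*-iKO (SD, n = 4). The log2 fold change was 0.70 (SE 0.077) against Ctr + 4-OHT, or 63.0% more RNA, but 0.44 (SE 0.081) against Ctr, or 35.9% more.

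*Tatdn2* showed the smallest change against Ctr + 4-OHT and nearly the same change against both controls. In Ctr it measured 37.9, 39.8 and 46.2 CPM in embryos SMH_128, SMH_132 and SMH_133. In Ctr + 4-OHT it measured 42.5, 38.6, 37.5 and 44.6 CPM in embryos SMH_125, SMH_126, SMH_129 and SMH_131. In *Smg6*-iKO it measured 57.8, 53.1, 54.9 and 60.9 CPM in embryos SMH_127, SMH_128, SMH_132 and SMH_133. The controls interleaved with each other, and the lowest *Smg6*-iKO library was 1.15 times the highest control. The means were 41.3 ± 4.36 CPM in Ctr (SD, n = 3), 40.8 ± 3.33 CPM in Ctr + 4-OHT (SD, n = 4) and 56.7 ± 3.42 CPM in *Smg6*-iKO (SD, n = 4). The log2 fold change was 0.49 (SE 0.073) against Ctr + 4-OHT, or 40.1% more RNA, and 0.46 (SE 0.079) against Ctr, or 37.3% more.

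**Figure D1:**
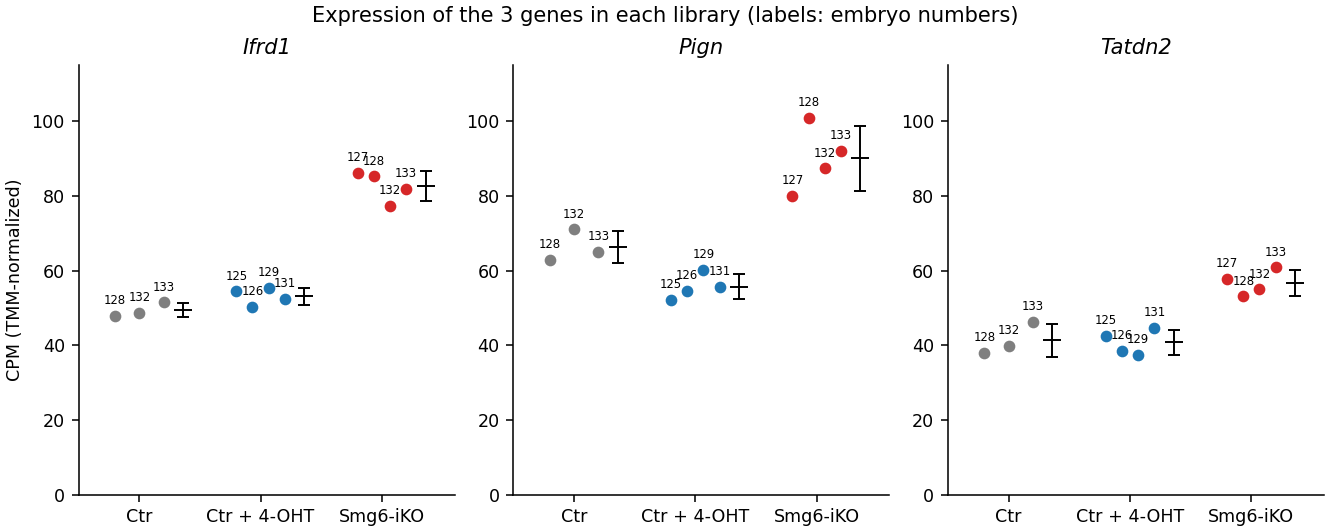
CPM of *Ifrd1*, *Pign* and *Tatdn2* in each of the 11 libraries, grouped by condition, with embryo numbers above the points and the group mean ± SD as a bar at the right of each group. In all 3 panels the 4 *Smg6*-iKO libraries sit above the 7 control libraries, with the largest gap for *Ifrd1*, and only *Pign* shows Ctr + 4-OHT wholly below Ctr.

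For all 3 genes, every *Smg6*-iKO library thus lay above every control library, as did 2.89% of the 18123 genes kept in the fit of all libraries. Over all genes, edgeR at an adjusted p under 0.05 called 0.757% of those tested against Ctr + 4-OHT higher and 0.416% lower, and 4.27% of those tested against Ctr higher and 4.98% lower (767 and 896 genes, or 1089 and 694 with upper-quartile scaling). Because the 3 genes were picked for these differences, no test of them is given and nothing is read from their separation. Among the 6843 protein-coding genes with a mean of at least 5 on the log2 CPM scale, the log2 fold change against Ctr + 4-OHT ranked 10 for *Pign*, 17 for *Ifrd1* and 33 for *Tatdn2*. Against Ctr, among 6833 such genes, *Ifrd1* ranked 13, *Tatdn2* ranked 51 and *Pign* ranked 57. Over all protein-coding genes tested, low ones included, the ranks were 209 for *Pign*, 286 for *Ifrd1* and 612 for *Tatdn2* of 13933 against Ctr + 4-OHT, and 947, 256 and 888 of 14079 against Ctr. The libraries held 1008 to 2955 counts of each gene, so the counting error alone was 1.84% to 3.15% of a value, and the spread between embryos of 3.79% to 10.5% exceeded it.

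Embryos SMH_128, SMH_132 and SMH_133 gave one culture to Ctr and one to *Smg6*-iKO, so the change could be read within an animal. For *Ifrd1* the log2 ratio of *Smg6*-iKO over Ctr was 0.83, 0.67 and 0.67 in the 3 embryos, a mean of 0.72 ± 0.095 (SD, n = 3). For *Pign* it was 0.68, 0.30 and 0.50, a mean of 0.49 ± 0.19 (SD, n = 3), so the animal with the largest ratio had more than double the log2 change of the animal with the smallest. For *Tatdn2* it was 0.49, 0.46 and 0.40, a mean of 0.45 ± 0.046 (SD, n = 3), the most even of the 3 genes. Embryo SMH_128 had the largest ratio for each gene. All 3 genes were higher in *Smg6*-iKO in all 3 pairs, as were 25.7% of the 18123 genes. With the embryo as a block in the fit, the log2 fold change against Ctr was 0.72 (SE 0.054) for *Ifrd1*, 0.49 (SE 0.062) for *Pign* and 0.45 (SE 0.055) for *Tatdn2*. That fit called far more genes than the fit without the block, 10.3% of 17974 genes higher and 11.2% lower, and these shares are the background for every count from the blocked fit.

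**Figure D2:**
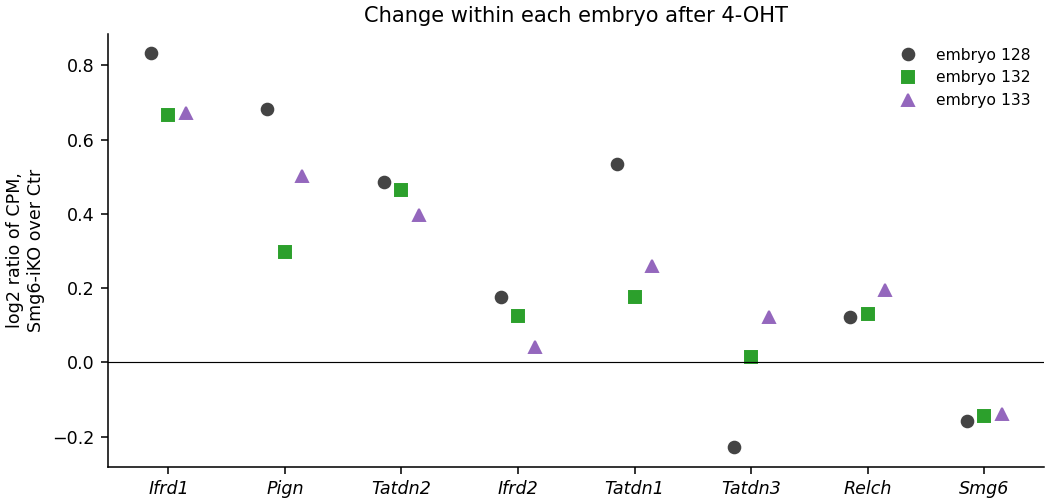
Log2 ratio of CPM in *Smg6*-iKO over Ctr within embryos SMH_128, SMH_132 and SMH_133, for the 3 genes, their paralogs, the neighbour *Relch* and *Smg6*. The 9 points of *Ifrd1*, *Pign* and *Tatdn2* lie between 0.30 and 0.83, and those of *Smg6* lie between -0.16 and -0.14.

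The comparison of the control groups asks whether 4-OHT together with the lack of CreER went with a change. The genes were not picked on it, but both control groups were baselines of the pick, which favours genes low in them, so its p-values are not independent of the choice. In edgeR's quasi-likelihood test 0.0396% of 17665 genes were called higher and 0.181% lower in Ctr + 4-OHT than in Ctr. By edgeR or by DESeq2 0 of the 3 genes were called. An unadjusted p under 0.05 was found for 1 of 3, *Pign*, in each (1462 of all 17665 genes in edgeR). *Ifrd1* differed by a log2 fold change of 0.11 (SE 0.066, adjusted p = 0.699 in edgeR), and *Tatdn2* by -0.018 (SE 0.094, adjusted p = 0.968 in edgeR), with overlapping groups in both. For *Tatdn2* the sign turned when 1 of 3 single libraries was left out. *Pign* was lower in all 4 Ctr + 4-OHT libraries than in any Ctr library, as were 4.85% of genes, with a log2 fold change of -0.25 (SE 0.073, unadjusted p = 0.00681, adjusted p = 0.386 in edgeR). Its two-sided exact permutation p was 0.0571, the smallest that 4 against 3 libraries allow, so no single gene could pass 0.05 by that test. For *Ifrd1* and *Tatdn2* the exact permutation p was 0.114 and 0.857.

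The rank order of the 3 genes by level depended on the length used. Per kb of all annotated exons, *Tatdn2* was highest in Ctr (11.6 ± 1.23 CPM per kb, SD, n = 3), then *Ifrd1* (8.43 ± 0.319), then *Pign* (4.87 ± 0.313), and no library of one gene reached the range of the next. Per kb of the main coding transcript, the same libraries gave 16.5 ± 1.06 CPM per kb for *Pign*, 14.6 ± 0.554 for *Ifrd1* and 13.3 ± 1.41 for *Tatdn2*, where the ranges of *Ifrd1* and *Tatdn2* overlapped. In *Smg6*-iKO the values per kb of main transcript were 24.5 ± 1.18 for *Ifrd1*, 22.5 ± 2.18 for *Pign* and 18.3 ± 1.11 for *Tatdn2* (SD, n = 4), where the ranges of *Ifrd1* and *Pign* overlapped. Counts per gene do not show which transcript was present, so neither length is settled by these data.

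Paralogs of the 3 genes gave a mixed picture. *Ifrd2*, the closest relative of *Ifrd1*, stayed between 19.1 and 24.8 CPM in all 11 libraries, with a log2 fold change of 0.026 (SE 0.082, adjusted p = 0.905 in edgeR) against Ctr + 4-OHT and 0.10 (SE 0.093, adjusted p = 0.522) against Ctr. *Tatdn1*, a TatD nuclease, measured 23.4, 28.2 and 24.4 CPM in Ctr, 22.9, 26.6, 26.1 and 21.5 CPM in Ctr + 4-OHT and 32.0, 33.9, 31.9 and 29.1 CPM in *Smg6*-iKO. Its *Smg6*-iKO libraries all lay above the controls, but the lowest was only 1.03 times the highest control. *Tatdn1* rose against Ctr (log2 fold change 0.32, SE 0.079, adjusted p = 0.0317 in edgeR), and against Ctr + 4-OHT its value of 0.40 (SE 0.083) missed the threshold (adjusted p = 0.0532). The call against Ctr was lost without Ctr SMH_128, Ctr SMH_133, *Smg6*-iKO SMH_127 or *Smg6*-iKO SMH_132 (adjusted p from 0.0314 to 0.114 over 7 libraries left out one at a time), and DESeq2 called *Tatdn1* higher in both comparisons. *Tatdn3* stayed between 9.07 and 13.0 CPM and was called in neither comparison, with log2 fold changes of 0.097 (adjusted p = 0.743 in edgeR) and -0.048 (adjusted p = 0.831). *Ifrd1* and *Tatdn2* were picked for their values and the paralogs were not, so nothing is read from the difference between them.

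**Figure D3:**
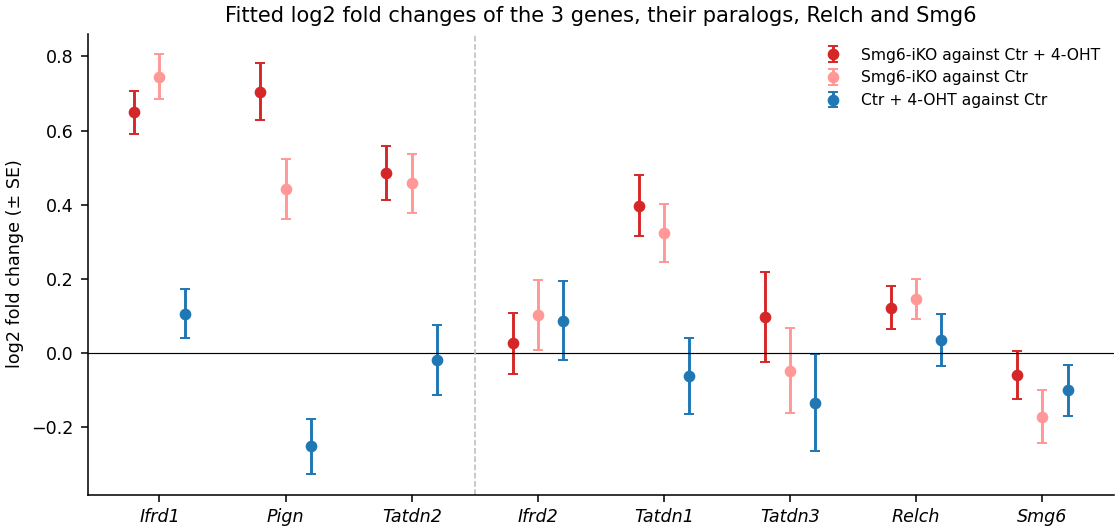
Fitted log2 fold change ± SE from edgeR in the 3 comparisons, for *Ifrd1*, *Pign* and *Tatdn2* (left of the dashed line) and for *Ifrd2*, *Tatdn1*, *Tatdn3*, *Relch* and *Smg6*. *Pign* is the gene with the largest distance between its values against Ctr + 4-OHT (0.70) and against Ctr (0.44), and its value between the controls is -0.25.

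Neighbouring genes on the chromosome were measured to see whether the change was shared locally. *Relch*, which encodes a protein of endosomal cholesterol transport and starts head to head with *Pign*, measured 88.3 to 95.7 CPM in Ctr, 85.6 to 102 CPM in Ctr + 4-OHT and 96.6 to 104 CPM in *Smg6*-iKO. Its log2 fold change was 0.12 (SE 0.058, adjusted p = 0.318 in edgeR) against Ctr + 4-OHT and 0.15 (SE 0.054, adjusted p = 0.112) against Ctr, beside 0.70 and 0.44 for *Pign*, which was picked for them, and *Relch* was called higher against Ctr with the embryo as a block (log2 fold change 0.15, adjusted p = 0.0312). Of 34 genes with an exon within 100 kb of an exon of the 3 genes, edgeR tested 16 and DESeq2 tested 28 against Ctr + 4-OHT, and 0 were called by either. In edgeR 1 had an unadjusted p under 0.05 (2930 of all 17558 genes). Against Ctr DESeq2 called 2 of 28 neighbours lower, *Brk1* and *Zfp277*, where it called 1402 of all genes lower. There edgeR called 1 (all genes, 4.98% lower), *Brk1* near *Tatdn2*, a subunit of the WAVE actin regulator, which fell (log2 fold change -0.22, SE 0.051, adjusted p = 0.0275 in edgeR). That call was lost with 6 of 7 libraries left out one at a time (adjusted p up to 0.0950) and kept without *Smg6*-iKO SMH_128, and with the embryo as a block 3 neighbours were called, *Relch* higher and *Brk1* and *Zfp277* lower, of 17 tested, where 10.3% of all genes were called higher and 11.2% lower. The other tested protein-coding neighbours, *Zfp277* near *Ifrd1* and *Vhl*, *Irak2*, *Sec13* and *Atp2b2* near *Tatdn2*, had log2 fold changes from -0.11 to 0.27 against Ctr + 4-OHT. Of the tested non-coding neighbours, *Gm3608* near *Pign* had a value of 1.84 that did not pass (adjusted p = 0.307 in edgeR) on 1 to 157 counts per library. It had -0.060 against Ctr, and -1.88 in Ctr + 4-OHT against Ctr. The remaining ones (*Gm17024*, *Gm7008*, *Gm37566*, *Gm44200*, *Gm26982*, *Gm44033*, *Gm44053*, *Gm44167*) lay between -0.14 and 0.38 and 0 of them were called. *Gm7008* overlaps 321 bases of *Ifrd1* exons on the other strand and held 13 to 35 counts per library, and counting used strand.

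The annotated transcripts of the 3 genes differ in the features that NMD is known to read. The main transcript of a gene was taken as the complete coding transcript with the best APPRIS rank, and a uORF as an upstream ATG with an in-frame stop before the coding start. *Ifrd1* had 1 uORF in a 5′ UTR of 233 bases, a 3′ UTR of 1795 bases, and 1 annotated NMD transcript among its 10 transcripts. *Pign* had 3 uORFs in a 5′ UTR of 366 bases, a 3′ UTR of 1159 bases, and 0 NMD transcripts but 5 retained-intron transcripts among 12. *Tatdn2* had 1 uORF inside a 5′ UTR of 558 bases, 1 more upstream ATG whose frame overlapped the coding start, and an exon junction 33 bases after the stop codon. All 3 genes therefore carried a uORF in the main transcript, as did 45.1% of the 13905 protein-coding genes tested. Among complete coding transcripts, a uORF was in 1 of 2 of *Ifrd1*, 4 of 4 of *Pign* and 1 of 3 of *Tatdn2*. At least 3 uORFs were found in 17.0% of those genes, an annotated NMD transcript in 27.6%, and any junction after the stop in 3.96%. A junction more than 50 bases after the stop, the distance commonly given for NMD, was found in 0.475% and in none of the 3 genes. The 5′ UTR of each was longer than the median of 186 bases, and the 3′ UTR of *Tatdn2*, at 369 bases, was shorter than the median of 1050. Among *Ifrd2*, *Tatdn1* and *Tatdn3*, the main transcript of *Ifrd2* held 2 uORFs and those of *Tatdn1* and *Tatdn3* held 0, while *Tatdn1* had 3 annotated NMD transcripts, *Ifrd2* had 2 and *Tatdn3* had 0.

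These features are no measure of decay. Over the same 13905 genes, 1.28% of those with an annotated NMD transcript were called higher against Ctr + 4-OHT and 0.235% lower, and 0.596% of those without one were called higher and 0.606% lower. Of genes with a uORF in the main transcript 0.718% were called higher and 0.351% lower (median log2 fold change 0.017), and of those without it 0.838% and 0.628% (median 0.0053). *Pign* and *Tatdn2* belong to the genes with no annotated NMD transcript and *Ifrd1* to those with one.

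Of 25 other genes of GPI anchor synthesis tested against Ctr + 4-OHT, edgeR called 0, and 3 had an unadjusted p under 0.05 (2930 of all 17558 genes). DESeq2 called 1 higher, *Pigg* (387 of all genes). The edgeR median log2 fold change was 0.014 where all tested genes had 0.012. Against Ctr, where 4.27% of all genes were called higher and 4.98% lower, edgeR called 1 higher and 0 lower of the 25, with a median of -0.034 where all genes had 0.0055. DESeq2 called 1 higher and 1 lower there (*Pigs*, named after its value was seen), where it called 1005 genes higher and 1402 lower in all. With the embryo as a block 4 of 25 were called higher and 2 lower (all genes, 10.3% and 11.2%). The gene called higher without the block was *Pigg*, which adds ethanolamine phosphate to the second mannose. It measured 18.0 ± 0.938 CPM in Ctr (SD, n = 3), 17.6 ± 1.66 CPM in Ctr + 4-OHT (SD, n = 4) and 22.4 ± 1.60 CPM in *Smg6*-iKO (SD, n = 4), and it rose against Ctr (log2 fold change 0.31, SE 0.078, adjusted p = 0.0334 in edgeR) while its value of 0.36 against Ctr + 4-OHT missed the threshold (adjusted p = 0.0804). The call against Ctr was lost without any one of the Ctr libraries, *Smg6*-iKO SMH_132 or *Smg6*-iKO SMH_133 (adjusted p from 0.0334 to 0.118 over 7 libraries left out). *Pigo*, the transferase for the third mannose, measured 18.6, 19.5 and 21.2 CPM on average in Ctr, Ctr + 4-OHT and *Smg6*-iKO, and *Pigf*, the partner of both PIGO and PIGG, measured 14.8, 13.4 and 13.4 CPM. Neither was called, nor were the mannosyltransferases *Pigm*, *Pigv*, *Pigb* and *Pigz*, although *Pigv* (0.25, adjusted p = 0.0331) and *Pigb* (0.25, adjusted p = 0.0294) were called higher against Ctr in the fit with the embryo block. The mannosyltransferase log2 fold changes against Ctr + 4-OHT ran from -0.27 for *Pigz*, at no more than 0.511 CPM in any library, to 0.23 for *Pigb*. Among 6 genes of GPI anchor remodelling edgeR and DESeq2 called 0 in either comparison. In edgeR 1 had an unadjusted p under 0.05 in each comparison (2930 of all 17558 genes against Ctr + 4-OHT, 4834 of 17974 against Ctr). Among 29 genes of GPI-anchored surface proteins edgeR called 0 against Ctr + 4-OHT, and 1 had an unadjusted p under 0.05 (2930 of all 17558 genes). DESeq2 called 1 lower there, *Gpc1*, named after its value was seen (493 of all genes). Against Ctr edgeR called 1 higher (all genes, 4.27%), the cell adhesion gene *Cntn1* (log2 fold change 0.30, adjusted p = 0.0257 in edgeR). *Cntn1* had -0.12 (adjusted p = 0.563) against Ctr + 4-OHT and 0.43 in Ctr + 4-OHT against Ctr, where DESeq2 called it and edgeR did not. DESeq2 called 2 of these genes higher and 2 lower in *Smg6*-iKO against Ctr, where it called 1005 genes higher and 1402 lower in all. With the embryo as a block 4 of these 29 genes were called higher and 5 lower against Ctr (all genes, 10.3% and 11.2%). The call of *Cntn1* was lost without Ctr SMH_132, Ctr SMH_133 or *Smg6*-iKO SMH_133 (adjusted p up to 0.104).

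Of 20 genes of the SIN3 histone deacetylase complex and *Ifrd2*, edgeR called 0 against Ctr + 4-OHT (all genes, 0.757% higher and 0.416% lower), with a median log2 fold change of -0.059. An unadjusted p under 0.05 was found for 5 of the 20 in edgeR (2930 of all 17558 genes). DESeq2 called 1 lower, *Rbbp4* (493 of all genes). The 20 were not picked for their values as *Ifrd1* was, so nothing is read from the difference between them. Against Ctr 0 of the 20 were called higher and 2 lower (all genes, 4.27% and 4.98%), the complex subunit *Sap30* (-0.40, adjusted p = 0.0157 in edgeR) and the histone-binding *Rbbp4* (-0.18, adjusted p = 0.0432), with a list median of -0.10. Both also had negative values against Ctr + 4-OHT, -0.25 (adjusted p = 0.220) and -0.23 (adjusted p = 0.0707), which did not pass. Against Ctr the call of *Sap30* was lost with 3 of 7 libraries left out (Ctr SMH_128, Ctr SMH_133 and *Smg6*-iKO SMH_133, adjusted p up to 0.0699) and that of *Rbbp4* with 6 of 7 (all but *Smg6*-iKO SMH_128, adjusted p up to 0.116), and with the embryo as a block 5 of the 20 were called lower and 0 higher (all genes, 11.2% and 10.3%).

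Of 15 NMD factors, the targeted gene *Smg6* among them, 3 rose against Ctr + 4-OHT, where 0.757% of all genes were called higher, and 12 did not pass, with a list median of 0.078. In that comparison 9 of the 15 had an unadjusted p under 0.05 in edgeR, as had 2930 of all 17558 genes, and DESeq2 called 4 higher and 1 lower, where it called 387 genes higher and 493 lower in all. The 3 factors were *Smg1*, the kinase of UPF1 (0.30, adjusted p = 0.0358 in edgeR), *Smg5*, an adaptor of decay (0.32, adjusted p = 0.0202), and *Smg9*, a subunit of the kinase complex (0.36, adjusted p = 0.0363). Against Ctr, where 4.27% of all genes were called higher, edgeR called 2 of the 15 higher and 0 lower. These were *Smg5* (0.43, adjusted p = 0.00349) and *Smg9* (0.28, adjusted p = 0.0420), while *Smg1* had 0.18 (adjusted p = 0.0833). DESeq2 called 4 higher and 2 lower there (1005 and 1402 of all genes). With the embryo as a block 5 of the 15 factors were called higher and 3 lower against Ctr (all genes, 10.3% and 11.2%). The 3 lower were *Smg6* itself, *Gspt1* and *Pnrc2*, the last 2 named after their values were seen. Of 39 other protein-coding genes with a transcript described as NMD-sensitive, 3 rose against Ctr + 4-OHT (all genes, 0.757%), 36 did not pass and the median was 0.066. An unadjusted p under 0.05 was found for 11 of the 39 in edgeR (2930 of all 17558 genes), and DESeq2 called 5 higher and 1 lower (387 and 493 of all genes). The 3 called by edgeR were *Rpl10a*, a ribosomal protein gene (0.44, adjusted p = 0.0243 in edgeR), *Atf4*, a uORF-controlled stress regulator (0.38, adjusted p = 0.0407), and *Hnrnpdl*, an autoregulated splicing factor (0.26, adjusted p = 0.0345), the last named after its value was seen. Against Ctr, where 4.27% of all genes were called higher and 4.98% lower, 10 of the 39 rose and 1 fell, among them *Atf4* (0.48), *Rpl10a* (0.45), *Atf5* (0.68), *Trib3* (0.75), *Atf3* (0.57) and *Ppp1r15a* (0.25), with a median of 0.0080. In Ctr + 4-OHT against Ctr the log2 fold changes were 0.47 for *Trib3*, 0.48 for *Asns* and 0.36 for *Atf5*, which edgeR did not call (adjusted p = 0.264, 0.257 and 0.478), and DESeq2 called *Trib3* and *Asns* there. The one that fell was *Tbl2* (-0.19, adjusted p = 0.0444 in edgeR), also named after its value was seen. With 1 library left out, the calls against Ctr + 4-OHT of *Atf4*, *Hnrnpdl* and *Smg9* were lost in 8 of 8 cases, that of *Smg1* in 7 (kept without Ctr + 4-OHT SMH_126) and those of *Smg5* and *Rpl10a* in 5 each, with adjusted p of up to 0.138. Against Ctr the calls of *Atf4*, *Atf5*, *Trib3*, *Rpl10a* and *Smg5* were kept in all 7 cases, that of *Smg9* was lost in 5, that of *Atf3* in 4, that of *Tbl2* in 6 and that of *Ppp1r15a* in 7. Of 5 mitochondrially encoded genes tested as a sign of RNA quality, edgeR called 0 in either comparison. An unadjusted p under 0.05 was found for 0 against Ctr + 4-OHT and 2 against Ctr (4834 of all 17974 genes). DESeq2 called 0 against Ctr + 4-OHT and 1 lower against Ctr (1402 of all genes). With the embryo as a block 3 were called lower against Ctr (all genes, 11.2%), whose part in the results was not tested.

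**Figure D4:**
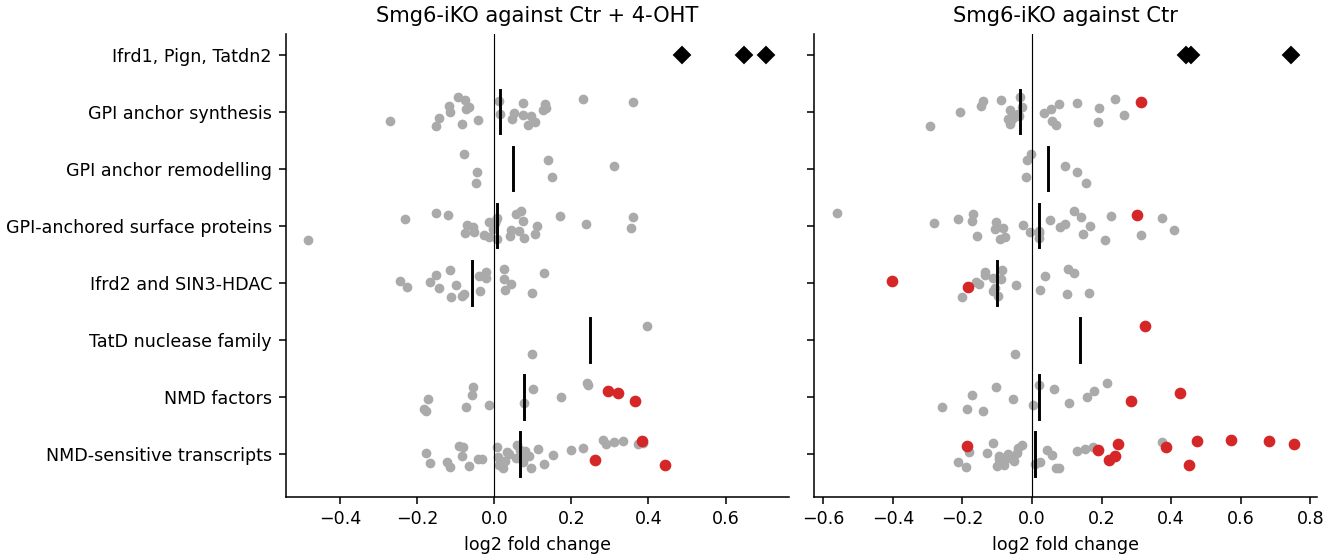
Log2 fold change of each tested gene of the gene lists in *Smg6*-iKO against Ctr + 4-OHT (left) and against Ctr (right), with called genes in red (adjusted p under 0.05 in edgeR), other genes in grey, list medians as vertical bars and the 3 chosen genes as black diamonds. The GPI lists centre near 0 in both panels while *Pign*, picked for its values, is at 0.70 and 0.44.

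The genes whose level over the 11 libraries was most like each of the 3 were named by Pearson's r of log2 CPM, as a description across libraries that share embryos and groups. For *Ifrd1* they were *Rnf166*, *Mto1* and the lincRNA *Gm16973* (r = 0.98 each). For *Pign* they were *Pithd1* and *Arfgef2* (r = 0.98 each) and *Rnf149* (r = 0.97). For *Tatdn2* they were *Hgh1* and *Slc23a2* (r = 0.98 each) and *Slx4ip* (r = 0.97). Most of these had smaller log2 fold changes against Ctr + 4-OHT than the gene they resembled, such as 0.27 for *Rnf166* and 0.24 for *Arfgef2*, whereas *Gm16973* had 1.18, with 10.0, 9.84 and 22.1 CPM on average in Ctr, Ctr + 4-OHT and *Smg6*-iKO, and *Slc23a2*, a vitamin C transporter gene, had 0.56 where *Tatdn2* had 0.49. The 3 genes correlated with each other at r = 0.85 (*Ifrd1* and *Pign*), 0.91 (*Ifrd1* and *Tatdn2*) and 0.79 (*Pign* and *Tatdn2*) over all libraries. After the group means were subtracted, r was 0.12, 0.26 and -0.32. The 3 genes were picked for being higher in *Smg6*-iKO, which fixes a high r over all libraries, and nothing is read from it.

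The values of the 3 genes under other processing and with libraries left out are given as a description. The genes were picked for being higher in these libraries, so nothing is read from their keeping that direction. Against Ctr + 4-OHT, leaving out 1 library at a time, the log2 fold change was 0.62 to 0.67 for *Ifrd1*, 0.64 to 0.76 for *Pign* and 0.44 to 0.53 for *Tatdn2*. Against Ctr it was 0.72 to 0.78 for *Ifrd1*, 0.38 to 0.50 for *Pign* and 0.40 to 0.54 for *Tatdn2*. Without *Smg6*-iKO SMH_127, the library high in mesenchyme markers, the values against Ctr + 4-OHT were 0.63, 0.76 and 0.48 for *Ifrd1*, *Pign* and *Tatdn2*, and against Ctr they were 0.72, 0.50 and 0.45. The embryo pairs do not include that library.

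**Figure D5:**
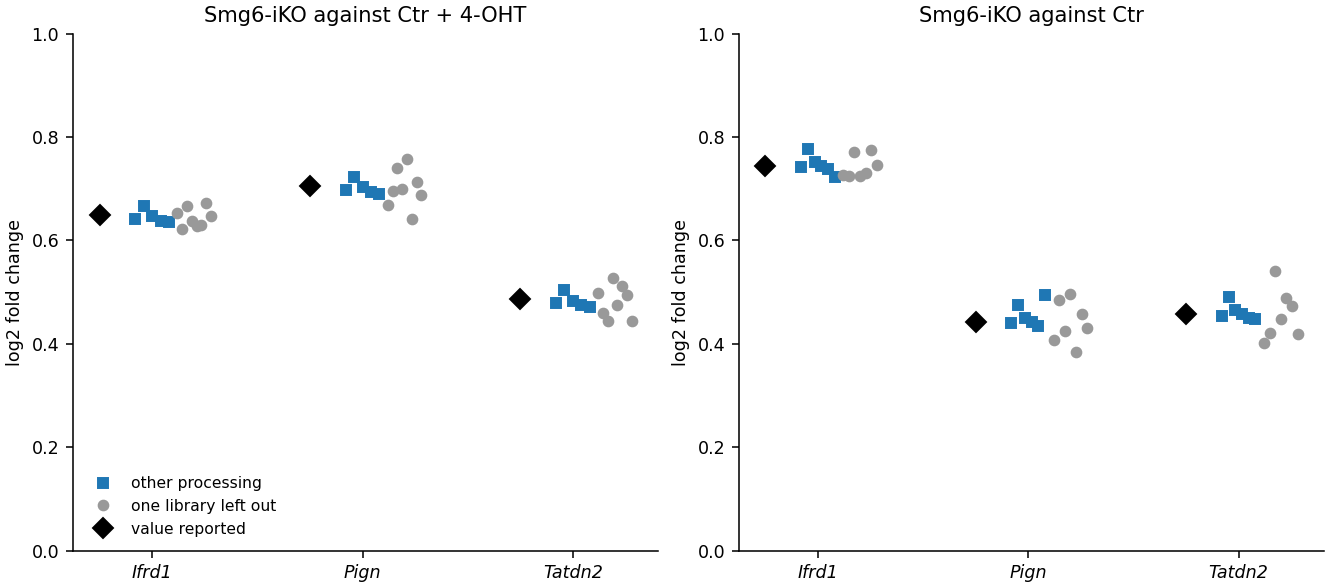
Log2 fold change of the 3 genes in *Smg6*-iKO against Ctr + 4-OHT (left) and against Ctr (right), as reported (black diamonds), under other processing (blue squares) and with one library left out (grey circles). All values against Ctr + 4-OHT lie between 0.44 and 0.76 and all values against Ctr between 0.38 and 0.78.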

How the data were processed

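The authors mapped 50-bp reads of stranded, ribosome-depleted total RNA to GRCm38 with STAR 2.5.4b, and counted them by strand with featureCounts 1.5.0 on Ensembl release 92 genes. They left out reads that mapped to several positions or genes, and deposited raw counts per gene, with no normalization. Reads shared with near-identical copies are therefore missing from the counts. Groups and embryo numbers came from the sample labels. Symbols were taken from GENCODE M21, which paired 53706 of 53801 identifiers and shares the build, and transcript features came from its transcripts. Start-region sequences came from RefSeq (GRCm38.p6).

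In R 4.3.3, edgeR 4.0.16 was used with filterByExpr, TMM scaling, quasi-likelihood tests, and p-values adjusted over all genes tested (Benjamini-Hochberg, threshold 0.05), on the libraries of each comparison alone. The SE of a log2 fold change was its size over the root of the F statistic. Log2 CPM used a prior count of 2. Alternatives were DESeq2 1.42.0 (its size factors, and its Wald test), upper-quartile scaling, no filter, all libraries in one fit, the embryo as a block, and each library left out. The scripts were tested on simulated data. Figures used matplotlib 3.10.9.

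Libraries of one group differed by a chi-square per gene of 11.0 to 43.0, so none was a duplicate. Same-embryo libraries of Ctr and *Smg6*-iKO deviated together (r from 0.328 to 0.425, different embryos from -0.265 to 0.0948), and the pairing comes from the embryo numbers. The 3 genes, the gene lists and the tests were chosen with earlier results of these data known. Named genes were the 3 genes, *Smg6*, paralogs, GPI enzymes of the same and adjoining steps, up to 6 called genes a list, tested genes within 100 kb, and the 3 most correlated genes each.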

Additional observations from a re-analysis of the deposited data

Results flagged for a closer look

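*Ifrd2* in *Smg6*-iKO had its highest library, embryo SMH_133, at 24.8 CPM, set apart from the other 3 libraries of the group, which lay between 21.5 and 22.0 CPM. By Dixon's criterion chance sets apart about 1 in 20 groups, and embryo SMH_133 also had the highest *Ifrd2* level in Ctr (24.1 CPM). The log2 ratio of *Smg6*-iKO over Ctr within that embryo was 0.041.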

How the results depend on the processing

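In *Smg6*-iKO against Ctr + 4-OHT, the log2 fold changes of *Ifrd1*, *Pign* and *Tatdn2* kept their direction under all 13 alternatives each, as they did against Ctr. The genes were picked for this direction, and their *Smg6*-iKO libraries all lay above the controls. Leaving out a library could therefore not turn it, and nothing is read from it. Counts of genes called varied with the processing. Against Ctr + 4-OHT, 206 genes were called, and 418 with no filter on low counts, 484 with all libraries in one fit and 880 by DESeq2's Wald test. With 1 library left out the count was 66 to 174. Of the listed genes 6 were called there, 10 with all libraries in one fit, 15 by DESeq2 and 0 to 4 with 1 library left out, so the calls of single list genes in that comparison rest on the full set of libraries. Against Ctr, 1663 genes were called, and 2714 with no filter, 796 with all libraries in one fit, 2407 by DESeq2's Wald test (1005 higher and 1402 lower) and 570 to 2524 with 1 library left out. Upper-quartile scaling turned the balance of these calls from 767 higher and 896 lower to 1089 and 694. Of the listed genes 18 were called there, 10 with all libraries in one fit, 29 by DESeq2 and 6 to 23 with 1 library left out. With the embryo as a replicate block, 3854 genes and 48 listed genes were called against Ctr, and the pairing left the direction of the 3 genes as it was. Between the controls, 39 genes were called, and 198 with no filter, 60 with all libraries in one fit, 168 by DESeq2 and 5 to 54 with 1 library left out. Of the listed genes 0 were called there by edgeR (1462 of all 17665 genes had an unadjusted p under 0.05), 4 with no filter and 4 by DESeq2, while *Ifrd1*, *Pign* and *Tatdn2* were called under 0 of 12 alternatives. *Tatdn2* between the controls turned from -0.018 to 0.076 without Ctr SMH_133, to 0.0074 without Ctr + 4-OHT SMH_126 and to 0.021 without Ctr + 4-OHT SMH_129, with a range of -0.077 to 0.076. The cause was not tested, except that leaving libraries out lowers the number compared. Counts per gene limit what can be said: they hold no transcript, junction or RNA stability, so a change in decay and a change in transcription cannot be told apart.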
